A study of Mus musculus with 15 samples.

Results

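The proteasome subunit genes described here were taken by gene symbol, as Psma1 to Psma7, Psmb1 to Psmb7, Psmc1 to Psmc6, the numbered Psmd genes and Psme1 to Psme4. This gave 38 genes of the 23420 in the count files, and all 38 had counts in each of the 15 libraries and were among the 12193 genes tested. By role they were 7 alpha ring and 7 beta ring subunits of the core particle, 6 ATPases, 3 non-ATPase subunits of the base, 8 subunits of the lid, 3 chaperones of base assembly and 4 activators. The remaining lid subunit, Sem1, has another kind of symbol and was counted with the associated factors.

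The libraries were made from polyA RNA of male C57Bl/6J mice, an inbred strain, taken from the left lobe of the liver as pulverized tissue, with 5 libraries for each of 3 diets. The MCD diet had 31% fat and lacked methionine, choline and folate, the high-fat diet (HFD) had 31% fat, and the base diet (BD) had 4% fat. Every library was labelled with the vehicle, 5% Alkmauls El-620 in saline, and with 24 h after treatment, so no mouse given the solvent tetrachloroethylene is among them. Nothing in the labels ties each library to an animal of its own, so the p-values measure the spread between these libraries. The numbers in the sample titles ran on from MCD to HFD and were higher, with a gap, in BD, so a batch that follows them and the base diet cannot be told apart.

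The proteasome degrades proteins that carry ubiquitin chains. Its core particle is a stack of rings in which outer alpha rings guard the entrance and inner beta rings hold the cutting sites, and the regulatory particle on its ends, built of a base and a lid, binds, unfolds and feeds in the substrate. In many mammalian cells the transcription factor NRF1, encoded by Nfe2l1, raises the subunit genes together when proteasome activity is lacking, and interferon signalling replaces the cutting subunits with immunoproteasome forms that favour peptides for class I antigen presentation.

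Libraries held 3704642 to 23131089 gene counts (median 10312311), and the 38 genes held 10337 to 75886 of them. They took 0.275% to 0.341% of gene counts in MCD, 0.276% to 0.303% in HFD and 0.279% to 0.312% in BD. Replicate 2 of MCD stood apart in the members, and results that rest on it, or on another single library, are given with and without that library. The 6 hepatocyte markers examined were present in every library, with a summed level of 112339 to 158036 CPM in MCD, 110595 to 133962 CPM in HFD and 122675 to 140948 CPM in BD. CPM are gene counts relative to the library size, which was scaled by TMM factors. A called gene is one with an adjusted p under 0.05 in edgeR's quasi-likelihood test, two-sided, with Benjamini-Hochberg adjustment over all genes tested.

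Levels per transcript length differed more between subunits than between diets. Among the 25 members that share under 5% of their 50-base stretches with other genes, the mean over the 15 libraries ran from 8.59 to 114 CPM per kb of transcript (median 57.4). Psmb6, the beta subunit with caspase-like activity, was highest at 114 CPM per kb, followed by the alpha subunits Psma6 at 101 and Psma7 at 101 CPM per kb.

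The base assembly chaperones, which help join the ATPases and leave before the particle is complete, were the lowest of these 25 on the same scale. Psmd10 had 8.59, Psmd5 9.57 and Psmd9 13.5 CPM per kb. The activators Psme4 and Psme3, which open the core particle without ATP, had 25.2 and 25.7 CPM per kb. The 5 ATPases of this set stood close together, between 40.4 and 71.9 CPM per kb.

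For the other 13 members the level is uncertain, because reads from a stretch shared with another gene are lost or misplaced. Psma5, Psmb3, Psmb5 and Psme2 share 55.4% to 59.3% of their stretches and had 7.27 to 24.2 CPM per kb. Psma3 had the lowest value of all members, 2.04 CPM per kb, on an annotated transcript of 2846 bases of which 22.0% of stretches are shared. Reads of 6 members can also not be told from a gene on the opposite strand if counting ignored strand, which the sources used here do not give: Psma4, Psmb7, Psmc3, Psmd1, Psmd13 and Psme1 overlap such a gene over 0.634% to 11.8% of their exon bases.

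**Figure D1:**
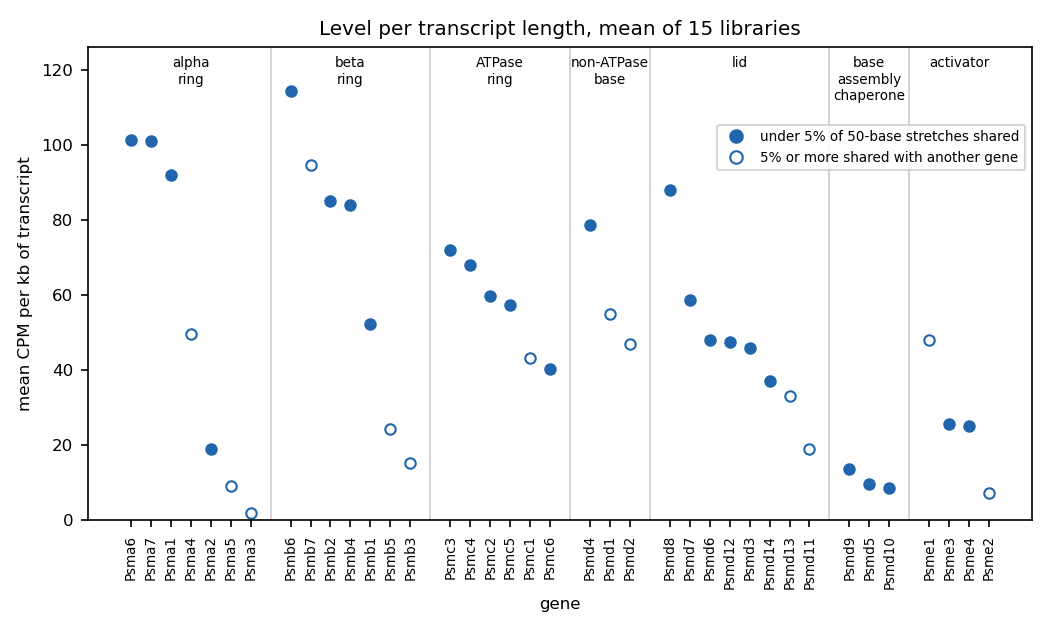
Mean level of each member over the 15 libraries, in CPM per kb of annotated transcript on the vertical axis, with genes on the horizontal axis grouped by role. Filled points share under 5% of their 50-base stretches with other genes and open points share 5% or more. The base assembly chaperones lie at 8.59 to 13.5 CPM per kb and Psmb6 at 114 CPM per kb.

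In MCD livers, against BD livers, 2 lid genes passed the test, Psmd8 in the upward and Psmd11 in the downward direction. Called members were thus 1 higher of 38, where 12.8% of all genes tested were called higher, and 1 lower of 38, where 8.64% were called lower. In either direction the share was 5.26% of members against 21.4% of all genes. DESeq2 and limma-voom called the same 1 gene higher and 1 gene lower. At an unadjusted p under 0.05 there were 7 members (18.4%), against 33.3% of all genes.

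Psmd11, a lid subunit that in yeast braces the regulatory particle against the core, lies on chromosome 11 at 80428615 to 80473248 on the plus strand. It had 47.5, 48.9, 50.6, 42.2 and 44.7 CPM in MCD, 54.03, 49.2, 51.1, 54.2 and 57.8 CPM in HFD, and 68.1, 61.7, 64.3, 66.9 and 53.7 CPM in BD. All 5 MCD libraries were below all 5 BD libraries, and the HFD libraries were intermediate and overlapped with both. Its log2 fold change in MCD over BD was -0.42 ± 0.09 (SE, n = 5 each; adjusted p = 0.00163), and it was called in each of the 24 alternative settings tried. It was the 1 member whose MCD and BD libraries did not overlap, where 15.4% of all genes did not. Psmd11 shares 18.9% of its 50-base stretches with other genes, so its level is uncertain. Non-unique alignments averaged 1.37 per gene count in MCD, 1.89 in HFD and 1.88 in BD, and with them as a covariate its log2 fold change in MCD over BD was -0.44 (adjusted p = 0.00528).

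Psmd8, a lid subunit whose counterpart in yeast joins the lid last, lies on chromosome 7 at 29174188 to 29180701 on the minus strand and shares no such stretch. It had 160, 187, 130, 149 and 154 CPM in MCD, 111, 145, 130, 128.3 and 126.4 CPM in HFD, and 131, 113, 115, 133 and 121 CPM in BD. Of the MCD libraries 4 were above all BD and HFD libraries, and replicate 3 of MCD lay within both other diets. The log2 fold change in MCD over BD was 0.35 ± 0.10 (SE, n = 5 each; adjusted p = 0.0156). With the number of non-unique alignments per gene count as a covariate the adjusted p was 0.0530, and the call was lost. In pulverized tissue, a change in RNA per cell and a change in the share of cells of a type cannot be told apart.

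**Figure D2:**
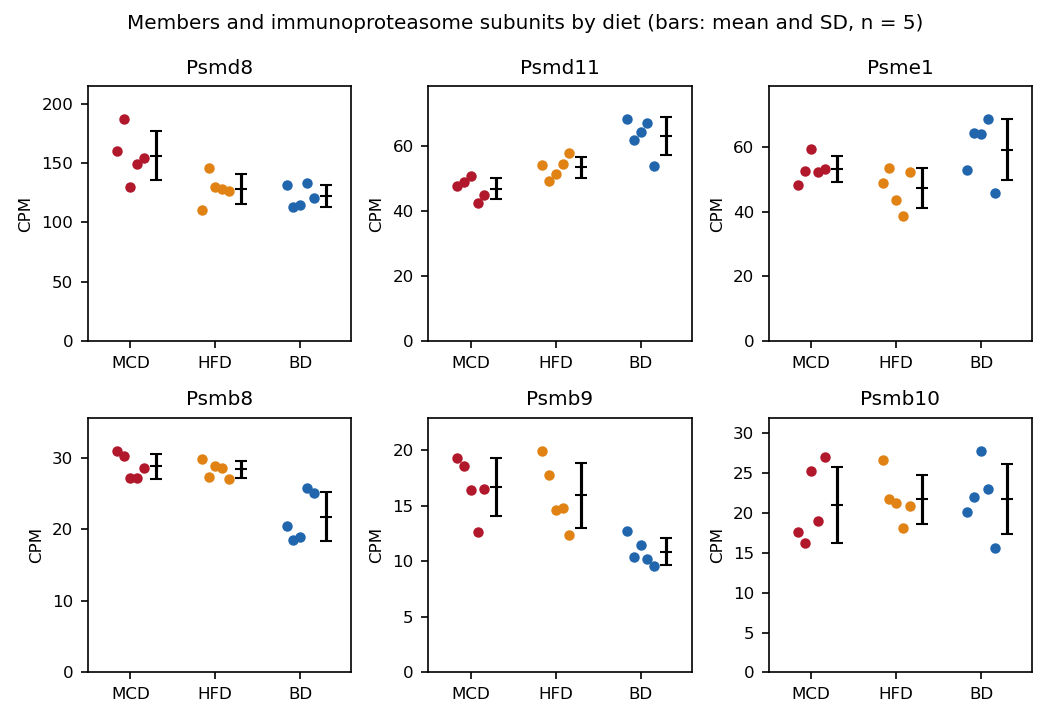
Level in CPM on the vertical axis of each panel, from 0, for the members Psmd8, Psmd11 and Psme1 and the immunoproteasome subunits Psmb8, Psmb9 and Psmb10, with MCD, HFD and BD on the horizontal axis. Points are libraries and bars give the mean and SD of 5 libraries. The MCD points of Psmd11 lie at 42.2 to 50.6 CPM, below the BD points at 53.7 to 68.1 CPM.

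The sequences before the start sites of these genes are shown because they moved in opposite directions within the same complex. Each is 250 bases up to the base before the start, from RefSeq on GRCm38.p6, with Psmd8 from chr7:29180674-29180923 on the minus strand and Psmd11 from chr11:80428365-80428614 on the plus strand. Capitals mark the GC box GGGCGG in both, and in Psmd11 also the ETS-type motif CCGGAAG, which reads as CTTCCGG here, and the YY1-type motif GATGGCG.
Psmd8: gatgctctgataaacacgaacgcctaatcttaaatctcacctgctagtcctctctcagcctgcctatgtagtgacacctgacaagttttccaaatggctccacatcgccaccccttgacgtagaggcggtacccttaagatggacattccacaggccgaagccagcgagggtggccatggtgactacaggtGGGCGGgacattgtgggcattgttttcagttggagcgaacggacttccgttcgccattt
Psmd11: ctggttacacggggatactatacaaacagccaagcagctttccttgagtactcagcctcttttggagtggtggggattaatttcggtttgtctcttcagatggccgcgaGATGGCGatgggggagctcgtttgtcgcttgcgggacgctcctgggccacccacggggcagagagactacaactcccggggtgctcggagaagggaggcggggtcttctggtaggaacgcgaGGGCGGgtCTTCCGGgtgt
The GC box begins 59 bases before the start in Psmd8 and 19 bases before it in Psmd11. In Psmd11 the ETS-type motif begins 11 bases and the YY1-type motif 141 bases before the start.

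Over all members, RefSeq gave a promoter window of 300 bases (250 before to 50 after the start) for 32 of 38, and motifs were searched on both strands beside the windows of 27025 genes. The 6 motifs given were picked from a longer set with the counts seen, so their shares are descriptions. The 27025 genes include genes too low to be tested here, and no share over the 12193 tested genes was taken. GGGCGG stood in 21 of 32 members (65.6%), against 35.9% of all genes, and CCGGAAG in 11 (34.4%), against 9.12%. GATGGCG stood in 6 members (18.8%), against 3.66%. TGACNNNGC, the core of the element that NRF1 and NRF2 bind, stood in 6 members (18.8%), against 12.5%, namely Psmb5, Psmb6, Psmc6, Psmd9, Psmd12 and Psme4. The CCAAT box CCAAT stood in 12 (37.5%), against 37.9%, and the TATA box TATAAA in 3 (9.38%), against 14.2%. None of the 6 motifs contains another. A match is a run of letters and not a site shown to be bound.

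The other members moved little in MCD against BD. Over the 38 the median log2 fold change was -0.09, against -0.03 over all genes tested, 30 of 38 lay below 0 (78.9%, against 53.4%), and the median size regardless of sign was 0.104, against 0.219. With non-unique alignments as covariate 21 of 38 lay below 0, with a median of -0.04, against -0.01 over all genes. The 95% interval lay within 0.5 on the log2 scale on either side of 0 for 31 of 38 members (81.6%), against 43% of all genes. Of the members 36 had at least 10 CPM, against 7659 of the 12193 genes tested. Level was not matched in this contrast or in those of the other comparisons, so it need not be particular to the members. The intervals that crossed that band belonged to Psmb3, Psmb6, Psmd3, Psmd8, Psmd10, Psmd11 and Psme2, a set read off after the values were seen.

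Among the core subunits in MCD against BD, the alpha ring had a median log2 fold change of -0.02 and the beta ring -0.14, with no member called. The largest values were those of Psma6, at 0.11 (adjusted p = 0.667), and of Psmb6, at -0.30 ± 0.12 (SE, n = 5 each; adjusted p = 0.0791). Psmb6 had 76.2, 84.8, 98.6, 77.0 and 75.7 CPM in MCD, 100.2, 86.02, 81.9, 87.9 and 94.7 CPM in HFD, and 94.2, 117, 116, 105 and 74.1 CPM in BD. The MCD libraries sat low, but replicate 5 of BD was lower than all of them.

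In the regulatory particle in MCD against BD, the 6 ATPases, which unfold the substrate, all lay below 0, from -0.09 to -0.23 with a median of -0.14, and none was called. Psmc5 was the lowest of them (log2 fold change -0.23, adjusted p = 0.116). Of the non-ATPase base subunits Psmd4, which binds ubiquitin chains, had the largest value, -0.26 ± 0.10 (SE, n = 5 each; adjusted p = 0.0662). Apart from Psmd8 and Psmd11, the lid gene with the largest value was Psmd3, singled out after its values were seen, at -0.37 ± 0.13 (SE, n = 5 each; adjusted p = 0.0531). It had 79.9, 75.2, 98.1, 85.3 and 94.6 CPM in MCD and 115, 128.5, 114, 130 and 73.2 CPM in BD, so that 4 BD libraries were above all MCD libraries and replicate 5 of BD was below them.

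Of the 3 base assembly chaperones in MCD against BD, Psmd10, known as the oncoprotein gankyrin, was at 0.25 (adjusted p = 0.254). Psmd9 was at 0.08 (adjusted p = 0.655) and Psmd5 at 0.01 (adjusted p = 0.967). Both of these went below 0 in some of the alternative settings, to -0.02 and -0.08. Of the 4 activators Psme4 had the largest value, -0.19 (adjusted p = 0.128), and none was called.

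Which members passed in MCD against BD changed with the libraries included and with the covariate. Without replicate 2 of MCD, 6 members were called lower, Psmc1, Psmc2, Psmc5, Psmd4, Psmd11 and Psme4, where 8.02% of genes were, and without replicate 5 of BD 4 members were, Psmb6, Psmd3, Psmd4 and Psmd11, where 10.1% were. Without replicate 3 of MCD, Psmb6 (adjusted p = 0.0451) was called lower beside Psmd11, where 978 of 12263 genes were. With non-unique alignments as covariate Psmd3, Psmd11 and Psme1 were called lower, where 946 of 12193 genes were. No member was called higher, where 1116 genes were. Psmd8 was the 1 member called higher without replicate 2 of MCD and without replicate 5 of BD, where 12.7% and 12.8% of genes were. Without scaling factors the median of all genes moved from -0.03 to 0.12 and that of the members from -0.09 to 0.05, so that the members stayed 0.06 and 0.07 below all genes, and 13 in place of 30 lay below 0.

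**Figure D3:**
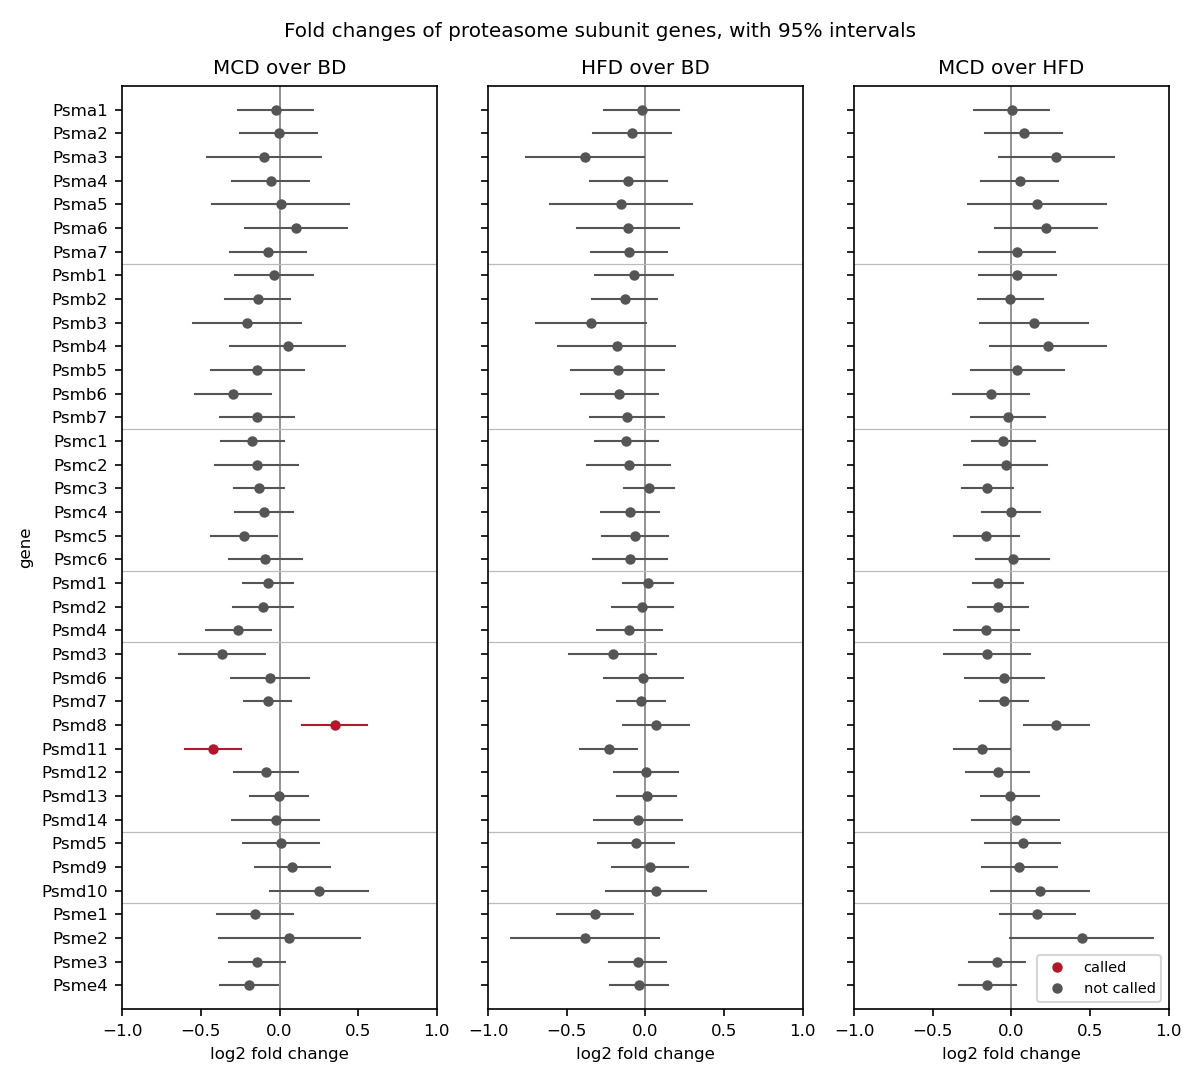
Log2 fold change of each member on the horizontal axis, with its 95% interval as a line, for MCD over BD, HFD over BD and MCD over HFD, and the genes by role from top to bottom. Red points were called and grey points were not. In the MCD over BD panel Psmd8 lies at 0.35 and Psmd11 at -0.42, and no other point in the 3 panels is red.

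In HFD livers, against BD livers, no member was called by edgeR, and none by DESeq2 or limma-voom, where edgeR called 6.92% of all genes tested, 3.65% higher and 3.27% lower. The libraries of the diets overlapped for each of the 38, where they did not for 7.05% of all genes. At an unadjusted p under 0.05 there were 3 members (7.89%), Psma3, Psmd11 and Psme1, against 20.2% of all genes. The median log2 fold change was -0.10 over the 38, against -0.01 over all genes, and 31 of 38 lay below 0 (81.6%, against 51.2%). Without scaling factors 23 of 38 lay below 0, with a median of -0.03 against 0.06 over all genes. The 95% interval lay within 0.5 on either side of 0 for 32 of 38 members (84.2%), against 48.7% of all genes.

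In the core, all 14 alpha and beta ring genes lay below 0 in HFD against BD. Psma3, an alpha subunit, had 4.72, 3.96, 3.31, 6.13 and 6.20 CPM in HFD and 5.96, 7.63, 5.08, 6.39 and 7.21 CPM in BD. The HFD libraries were lower in 3 of 5 cases and overlapped with BD in the others. The log2 fold change was -0.38 ± 0.18 (SE, n = 5 each; adjusted p = 0.234), on as few as 14 counts in a library. Psmb3, a beta subunit without a cutting site, had the largest value of its ring, -0.35 (adjusted p = 0.252).

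In the regulatory particle the values for HFD against BD were small. The largest were -0.12 for the ATPase Psmc1 (adjusted p = 0.538), -0.10 for Psmd4 (adjusted p = 0.629), -0.23 for Psmd11 (adjusted p = 0.119) and 0.07 for Psmd10 (adjusted p = 0.867), each the largest of its role. For Psmd11, the HFD mean of 53.3 ± 3.27 CPM lay between 46.8 ± 3.31 CPM in MCD and 62.9 ± 5.74 CPM in BD (SD, n = 5 each).

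The paired activators Psme1 and Psme2, which form a ring on the core and are induced by interferon, had negative values in HFD against BD. Psme2, the largest of its role, was at -0.38 (adjusted p = 0.369), on as few as 17 counts in a library. Psme1, singled out after its values were seen, had 48.9, 53.5, 43.8, 38.8 and 52.3 CPM in HFD and 53.05, 64.4, 64.3, 68.7 and 46.0 CPM in BD. Of the BD libraries 3 were above all HFD libraries and replicate 5 was among the low HFD ones, and the log2 fold change was -0.32 ± 0.12 (SE, n = 5 each; adjusted p = 0.110). Without replicate 5 of BD, 3 members were called lower, Psmd3 (adjusted p = 0.0497), Psmd11 (0.0386) and Psme1 (0.0247), where 3.64% of genes were, and none was called higher, where 4.11% were.

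Between the diets with equal fat, MCD against HFD, no member was called by edgeR, DESeq2 or limma-voom, where edgeR called 3.15% of all genes tested, 2.22% higher and 0.927% lower. The libraries of the diets overlapped for each of the 38, where they did not for 4.32% of all genes. At an unadjusted p under 0.05 there were 2 members (5.26%), Psmd8 and Psmd11, against 19.9% of all genes. The median log2 fold change was -0.00, as over all genes, and 19 of 38 lay below 0 (50.7% of all genes did). The 95% interval lay within 0.5 on either side of 0 for 33 of 38 members (86.8%), against 50.4% of all genes.

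By role, the largest values for MCD over HFD were 0.29 for Psma3 (adjusted p = 0.375), 0.23 for Psmb4 (0.478), -0.16 for Psmc5 (0.380), -0.16 for Psmd4 (0.380), 0.28 for Psmd8 (0.117), 0.18 for Psmd10 (0.523) and 0.45 for Psme2 (0.264). Psmd8 averaged 156 ± 20.6 CPM in MCD and 128.2 ± 12.4 CPM in HFD (SD, n = 5 each). It passed the threshold without scaling factors (adjusted p = 0.0431), without replicate 2 of HFD (0.0352), without replicate 3 of MCD (0.0497) and without both of these (0.0148).

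The member genes varied among replicates about as much as other genes of like level. Within diets the SD of log2 CPM had a median of 0.184 over the 38, against 0.234 over all genes tested, and at 10 CPM or more it was 0.181 over 36 members and 0.190 over 7659 genes. Psmd7, a lid subunit, was the steadiest, with an SD of 0.0716, and the alpha subunit Psma5 the most variable, with an SD of 0.355.

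Replicate 2 of MCD stood apart, with the members high together. It was the highest MCD library for 26 of 38 members (68.4%), against 28.7% of all genes tested. Relative to the other MCD libraries its median deviation was 0.35 on the log2 scale, 0.48 for the 19 members with shorter transcripts and 0.25 for the 19 with longer ones. Psma6 had 172 CPM in it and 87.1 to 124.3 CPM in the other MCD libraries, and Psmb4 had 174 CPM and 78.0 to 112 CPM. The library also had the lowest share of reads outside genes, 12.7%, and the part of this in the result was not tested. In HFD replicate 1 and in BD replicate 4 was the highest library of its diet for 15 members each (39.5%), against 19.1% and 17.7% of all genes.

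**Figure D4:**
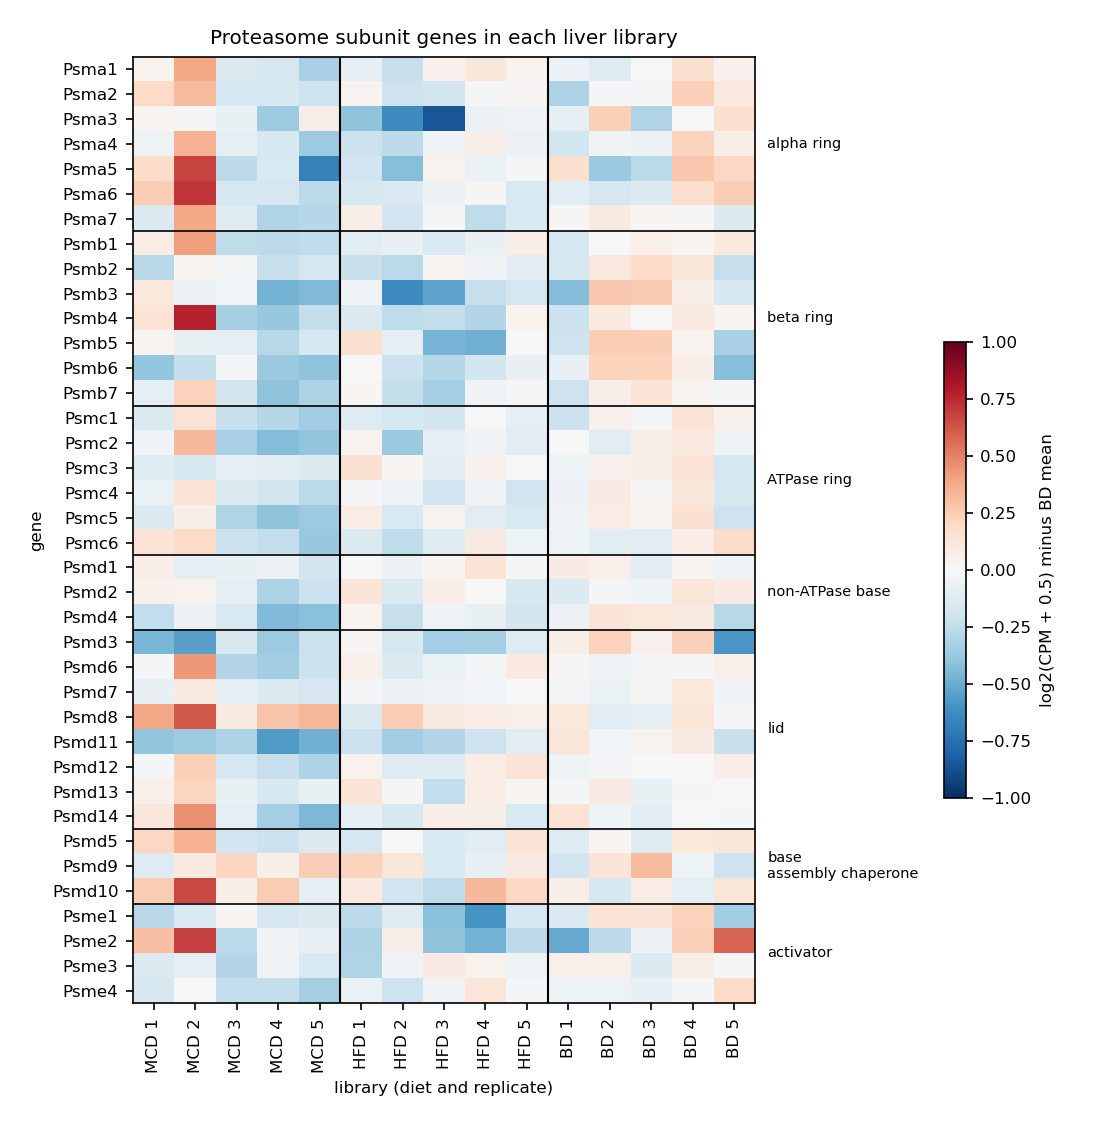
Level of each member in each library as log2(CPM + 0.5) minus the BD mean of the gene, shown by colour (red above, blue below), with genes by role from top to bottom and the MCD, HFD and BD libraries from left to right. Replicate 2 of MCD is red for most members, Psmd11 is blue in all 5 MCD libraries and Psmd8 is red in all 5.

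Summed over each role, the diets overlapped. Core subunits summed to 795 to 1248 CPM in MCD, 835 to 944 CPM in HFD and 880 to 1041 CPM in BD, and the subunits of the regulatory particle without chaperones to 1446 to 1817 CPM in MCD, 1563 to 1692 CPM in HFD and 1601 to 1799 CPM in BD. The ratio of the core sum to this sum was 0.550 to 0.687 in MCD, 0.535 to 0.584 in HFD and 0.525 to 0.601 in BD. The highest MCD value of each came from replicate 2. The activators summed to 261 to 304 CPM in MCD, 277 to 304 CPM in HFD and 298 to 324 CPM in BD, with BD high. The overlap of MCD with BD rested on replicate 2 of MCD, and without it MCD lay at 261 to 275 CPM, below BD.

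Of the immunoproteasome subunits, which are not among the 38, Psmb8 and Psmb9 were higher on both fat diets and Psmb10 was not called. Psmb8, which takes the place of Psmb5, had 31.0, 30.2, 27.2, 27.2 and 28.5 CPM in MCD, 29.8, 27.4, 28.9, 28.6 and 27.1 CPM in HFD, and 20.4, 18.6, 18.95, 25.7 and 25.1 CPM in BD. All MCD and all HFD libraries were above all BD libraries. The log2 fold change over BD was 0.40 ± 0.10 in MCD (adjusted p = 0.00843) and 0.38 ± 0.10 in HFD (adjusted p = 0.0320; SE, n = 5 each).

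Psmb9, which takes the place of Psmb6, had 19.3, 18.6, 16.5, 12.6 and 16.5 CPM in MCD, 19.98, 17.8, 14.7, 14.9 and 12.4 CPM in HFD, and 12.8, 10.4, 11.5, 10.2 and 9.57 CPM in BD. In MCD and in HFD 4 of 5 libraries were above all BD libraries and the lowest lay just under the highest BD library. The log2 fold change over BD was 0.64 ± 0.14 in MCD (adjusted p = 0.00360) and 0.58 ± 0.15 in HFD (adjusted p = 0.0208; SE, n = 5 each). Psmb10, which takes the place of Psmb7, averaged 21.0 ± 4.77 CPM in MCD, 21.7 ± 3.09 CPM in HFD and 21.7 ± 4.43 CPM in BD (SD, n = 5 each). The thymus form Psmb11 had no counts and the testis form Psma8 was not tested.

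The MCD calls of Psmb8 and Psmb9 held in the 24 settings tried, while in HFD Psmb8 was called in 17 and Psmb9 in 20 of 24, with adjusted p up to 0.0992 and 0.0647. The call of Psmb8 in HFD was lost with only the 2 diets compared and without replicate 1 or 4 of HFD or 1, 2 or 3 of BD, and that of Psmb9 without replicate 1 or 2 of HFD or 4 of BD. Both were lost without HFD replicate 2 and MCD replicate 3 together. Macrophages are known to express both genes, and the 9 macrophage and monocyte markers summed to 228 to 328 CPM in MCD, 152 to 246 CPM in HFD and 103 to 172 CPM in BD. Of these markers 9 were called higher in MCD against BD, where 12.8% of all genes were. In HFD against BD 2 were, where 3.65% of all genes were. None of the markers was at 0, and their part in the result was not tested.

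Set against the constitutive subunit in the same library, which needs no scaling between libraries, the immunoproteasome forms had higher ratios on the fat diets that did not pass after adjustment over the 9 ratio tests. The log2 ratio of Psmb9 to Psmb6 averaged -2.31 ± 0.27 in MCD, -2.51 ± 0.26 in HFD and -3.20 ± 0.27 in BD (SD, n = 5 each). MCD was above BD in every library, by 0.89 on average (two-sided exact permutation p = 0.00794, the smallest possible, adjusted 0.0714), and HFD differed from BD by 0.69 (exact p = 0.0159, adjusted 0.0714) with 1 overlapping library. With so few splits, 1 ratio by itself cannot pass after adjustment over 9 tests, however well the diets separate. The log2 ratio of Psmb8 to Psmb5 differed from BD by 0.54 in MCD (exact p = 0.0238, adjusted 0.0714) and by 0.58 in HFD (exact p = 0.0556, adjusted 0.125). For Psmb10 to Psmb7 the differences were 0.10 in MCD (exact p = 0.714) and 0.14 in HFD (exact p = 0.421). Psmb5 shares 57.1% of its 50-base stretches with other genes, Psmb7 28.1% and Psmb9 12.5%, so these ratios are uncertain too. They were not adjusted for non-unique alignments.

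**Figure D5:**
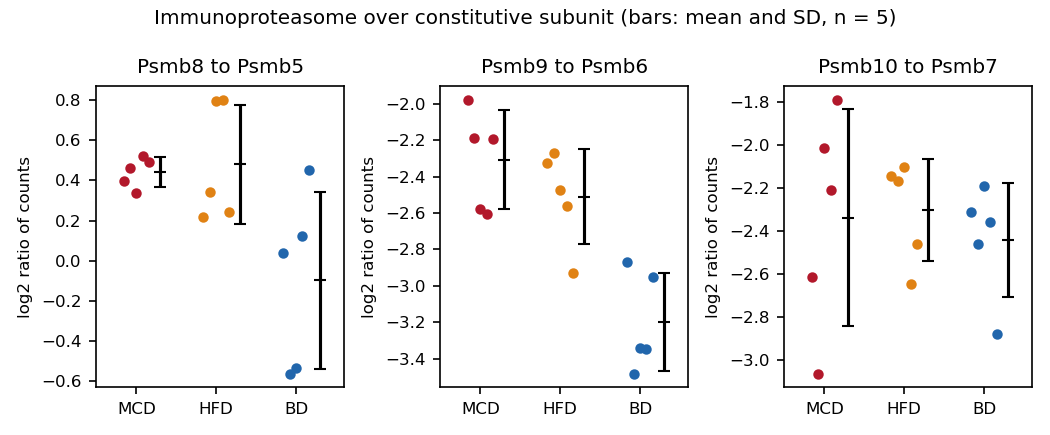
Log2 ratio of counts of each immunoproteasome subunit to the constitutive subunit it replaces, on the vertical axis, for MCD, HFD and BD on the horizontal axis. Points are libraries and bars give the mean and SD of 5 libraries. For Psmb9 to Psmb6 the MCD mean is -2.31, the HFD mean -2.51 and the BD mean -3.20.

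Psmb9 lies on chromosome 17 with its RefSeq start 226 bases from that of Tap1, a subunit of the peptide transporter, on the opposite strand, and both genes were higher on the fat diets. Tap1 averaged 31.7 ± 4.41 CPM in MCD, 35.2 ± 6.49 CPM in HFD and 24.0 ± 2.33 CPM in BD (SD, n = 5 each), with a log2 fold change over BD of 0.42 in MCD (adjusted p = 0.0226) and 0.57 in HFD (adjusted p = 0.00892). The MCD call of Tap1 was lost with non-unique alignments as covariate (adjusted p = 0.0925), with MCD replicate 3 and HFD replicate 2 both removed (0.0609), and without replicate 1 (0.0600) or 3 (0.0527) of MCD or 2 (0.0589) or 3 (0.0597) of BD. The 250 bases before the Psmb9 start, from RefSeq on GRCm38.p6 at chr17:34187331-34187580 on the minus strand, are shown because they reach into Tap1, with capitals for the GC box GGGCGG and for the CCAAT box, which reads as ATTGG here.
Psmb9: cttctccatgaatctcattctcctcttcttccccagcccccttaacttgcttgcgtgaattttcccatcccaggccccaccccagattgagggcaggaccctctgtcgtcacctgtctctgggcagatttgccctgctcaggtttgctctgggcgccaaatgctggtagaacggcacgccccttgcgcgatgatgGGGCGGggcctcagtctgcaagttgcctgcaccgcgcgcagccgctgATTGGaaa
The GC box begins 55 bases and the CCAAT box 8 bases before the Psmb9 start. In the GENCODE annotation, unlike by these RefSeq starts, the genes overlap on opposite strands, so their counts are uncertain where strand was ignored.

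Genes that assemble or assist the proteasome did not pass the test. None of the 5 chaperones of core assembly and none of the 16 proteasome-associated factors, among them the deubiquitinases Usp14 and Uchl5 and the lid subunit Sem1, was called by edgeR, DESeq2 or limma-voom in the 3 comparisons. At an unadjusted p under 0.05, 1 chaperone and 3 factors were lower in MCD against BD, where 33.3% of all genes passed. None passed in HFD against BD, where 20.2% of all genes did. In MCD against HFD 2 of the factors passed, where 19.9% of all genes did. Without scaling factors 1 factor, Zfand2a, was called higher in MCD against BD.

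Among the ubiquitin and E1 genes, the E1 enzyme gene Uba1 fell in MCD against BD, by 0.25 on the log2 scale (adjusted p = 0.0210), a call that was lost without scaling factors (adjusted p = 0.278), without the count filter (0.0614), with only the 2 diets compared (0.0551), with non-unique alignments as covariate (0.0750) and without replicate 1 (0.0619) or 5 (0.0603) of MCD or 1 of BD (0.0783).

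Of the 9 genes of the NRF1 pathway and the p97 unfoldase, Nfe2l1 itself was not called. It averaged 210 ± 38.7 CPM in MCD, 225 ± 19.99 CPM in HFD and 191 ± 25.9 CPM in BD (SD, n = 5 each), with a log2 fold change over BD of 0.14 in MCD (adjusted p = 0.462) and 0.24 in HFD (adjusted p = 0.302). Faf2 and Syvn1, which act in protein removal from the endoplasmic reticulum, fell in MCD against BD by 0.35 (adjusted p = 0.00438) and by 0.68 (adjusted p = 0.0160) on the log2 scale. The call of Faf2 was lost without scaling factors (adjusted p = 0.0712) and that of Syvn1 with non-unique alignments as covariate (0.0680). In HFD against BD Syvn1 had a log2 fold change of -0.63 (adjusted p = 0.0563), with all HFD libraries below all BD libraries, and DESeq2 called it lower (0.0181). DESeq2 and limma-voom also called Sel1l lower in MCD against HFD, where edgeR gave -0.34 (adjusted p = 0.0540). No gene of this list was called higher by edgeR, DESeq2 or limma-voom, and none had a positive value at an unadjusted p under 0.05, in the 3 comparisons.

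Of 9 tested genes of NRF2 and its targets, 3 rose in MCD against BD, where 12.8% of all genes were called higher. In HFD against BD 1 rose, where 3.65% of all genes were called higher. None was called lower, and the median log2 fold change of the 9 was 0.10 in MCD and -0.15 in HFD against BD. Nfe2l2, which encodes NRF2, averaged 149 ± 14.6 CPM in MCD, 132 ± 15.2 CPM in HFD and 108 ± 14.5 CPM in BD (SD, n = 5 each). Its log2 fold change over BD was 0.47 in MCD (adjusted p = 0.00414) and 0.29 in HFD (adjusted p = 0.129, not called). The haem oxygenase gene Hmox1 rose by 0.81 in MCD (adjusted p = 0.000168) and by 0.45 in HFD (adjusted p = 0.0325). The HFD call was lost with limma-voom (adjusted p = 0.0522), with only the 2 diets compared (0.0531), with MCD replicate 3 and HFD replicate 2 both removed (0.107), and without replicate 1, 2 or 3 of HFD or 1, 3 or 4 of BD (0.0502 to 0.0936). The antioxidant gene Srxn1 was the other gene called in MCD against BD. In MCD against HFD edgeR called none of the list. DESeq2 and limma-voom called Nqo1 higher there, as did edgeR without scaling factors.

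Of 10 tested genes of class I antigen processing, 4 were called higher in MCD against BD, where 12.8% of all genes were. In HFD against BD 2 were called higher, where 3.65% of all genes were. The remaining genes of the list were not called in either. H2-D1, a class I heavy chain, rose in MCD against BD, with a log2 fold change of 0.62 (adjusted p = 0.00122). The heavy chain H2-K1 was also called higher in MCD against BD, and Tap1 on both fat diets, as given above.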

How the data were processed

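The deposited files hold raw read counts by gene symbol, 1 file per library, and the counts were used unchanged, and the 5 rows at the end of each file that name no gene stayed out of library sizes and tests. The submitters' processing notes name the tools HTSeq, DESeq2, Trimmomatic and TopHat2 (2.0.13) and the build GRCm38/mm10, and per the labels' protocols the kit keeps strand. What annotation was counted, with which strand setting and mode, is not given in the sources used here. Reads outside genes made up 12.7% to 17.0% of reads with a unique position. Non-unique alignments numbered 1.15 to 2.80 per gene count, so stretches shared between genes are poorly measured.

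The test was that of edgeR 4.0.16 on R 4.3.3 (TMM factors, filterByExpr with minimum count 10 and minimum total 15, 1 robust quasi-likelihood fit over the 15 libraries) for 3 pairs of diets. DESeq2 1.42.0 and limma 3.58.1 (voom) were alternatives, with other scalings, filters and fits and with each library left out. Ratios of subunits used counts plus 0.5 and exact permutation tests over 252 splits, with 0.00794 the smallest p possible, and adjustment over 9 tests. Sharing between genes was taken as the percent of 50-base stretches of a member's transcript found in transcripts of other genes. Gene positions, transcripts and overlaps are from the GENCODE annotation of GRCm38, and promoter windows from RefSeq on GRCm38.p6.

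The members and lists were chosen with earlier results of these data known. In each comparison the called members and the member with the largest absolute fold change of each role are named, with the 2 called genes of smallest p of each list and Psmb8, Psmb9, Psmb10, Nfe2l1 and Nfe2l2. Some genes that this rule names are not reported here. Psmd3, Psme1, single values of MCD replicate 2, other called list genes and genes called under an alternative were named after their values were seen. Replicate numbers follow the accession order and serve as names. Between libraries of a diet, chi-square divided by its degrees of freedom was 7.33 to 65.0 in 30 pairs, so no pair was treated as repeat deposits of 1 library. This does not show whether libraries share an animal. The fit was checked on simulated counts of known fold change. Depth was from 3704642 to 23131089 gene counts, at which 3 counts were 0.118 to 0.851 CPM.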

Additional observations from a re-analysis of the deposited data

Results flagged for a closer look

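The 5 libraries of each of the 3 diets were examined for the 38 members and 5 other genes, and in 3 cases a library lay far from the other 4. Chance flags about 1 group in 20, but the genes share the same libraries. The groups are thus not independent, and the number flagged cannot be weighed against chance. Psma7, an alpha subunit, had 125.6 CPM in MCD replicate 2, against 77.6 to 88.3 CPM in the other MCD libraries. Psmd3, a lid subunit, had 73.2 CPM in BD replicate 5, against 114 to 130 CPM in the other BD libraries. Psme4, the activator of nuclear proteasomes, had 196.6 CPM in BD replicate 5, against 163 to 170 CPM in the other BD libraries. BD replicate 5 had the highest count of non-unique alignments, 2.80 per gene count, and the part of this in the values was not tested.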

How the results depend on the processing

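With a covariate for non-unique alignments, 1 of 38 members was called lower in HFD against BD, where 518 of 12193 genes were. In MCD against BD 3 members were called lower, where 946 genes were, and 0 higher, where 1116 genes were. Without both HFD replicate 2 and MCD replicate 3, 3 members were called lower in MCD against BD, where 1115 of 12203 genes were. In MCD against HFD 1 member was then called higher, where 883 genes were. Without scaling factors 1 member was called higher there, where 411 of 12193 genes were. All genes called in MCD against HFD numbered 384, and 701 with DESeq2, 224 with only the 2 diets compared, 82 with the covariate and 1365 without both libraries. Without scaling factors the calls split into 2304 higher and 513 lower in MCD against BD (1557 and 1053 with them), 588 and 297 in HFD against BD (445 and 399), and 411 and 67 in MCD against HFD (271 and 113). The cause was not tested.

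With each library left out in turn, members called lower numbered 0 to 3 in HFD against BD and 1 to 6 in MCD against BD, and members called higher 1 in MCD against BD and 0 to 1 in MCD against HFD. All genes called numbered 1938 to 2805 in MCD against BD, 569 to 974 in HFD against BD and 74 to 1248 in MCD against HFD. The log2 ratio difference of Psmb8 to Psmb5 ran from 0.42 to 0.67 in MCD against BD and from 0.46 to 0.71 in HFD against BD, and that of Psmb9 to Psmb6 from 0.81 to 0.97 and from 0.62 to 0.79. After adjustment, 3 of these passed without BD replicate 5 (0.0238 each: both ratios in MCD, and Psmb8 to Psmb5 in HFD), and Psmb9 to Psmb6 in HFD without HFD replicate 5 (0.0357). Whether a ratio passes depends here on how many tests reach the smallest possible p together, so nothing is concluded from these passes.

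Over the 24 alternatives, 50 of the values of 52 genes lost and 40 gained a call, and none with a call changed sign. Low counts limit Psma3 and Psme2, with 14 counts of Psma3 in HFD replicate 3 and 17 of Psme2 in BD replicate 1, the shallowest library. No paired analysis was possible because the labels give no replicate numbers and those used follow the order of deposit.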

Other observations

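None of the 9 genes of the COP9 signalosome, a relative of the lid, was called by edgeR, DESeq2 or limma-voom in the 3 comparisons. The same held for the 8 genes of the CCT chaperonin. At an unadjusted p under 0.05 there was 1, in the signalosome in MCD against HFD, where 19.9% of all genes passed. Without scaling factors Cct4 was called higher in MCD against BD. Of 14 autophagy genes Map1lc3b rose in MCD against BD, with a log2 fold change of 0.31 (adjusted p = 0.0337, edgeR's quasi-likelihood test), a call lost without MCD replicate 2 (0.0753) or BD replicate 1 (0.0541), 2 (0.0920), 3 (0.0637) or 4 (0.0599). In HFD against BD edgeR, DESeq2 and limma-voom called no autophagy gene. Of the 14, 3 had an unadjusted p under 0.05 in it, where 20.2% of all genes did. Without scaling factors Ulk1 was called higher there, where its log2 fold change with them was 0.39 (adjusted p = 0.0906). In MCD against HFD edgeR and limma-voom called none, DESeq2 called Gabarapl1 and Sqstm1 higher and Ulk1 lower, and 4 of the 14 had an unadjusted p under 0.05, where 19.9% of all genes did. Without scaling factors, Gabarapl1 and Map1lc3b were called higher.

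Markers of other liver cell types differed between diets. Higher in MCD against BD were 9 of 9 macrophage and monocyte, 4 of 5 Kupffer cell, 6 of 7 stellate cell and fibroblast, 2 of 5 endothelial and 4 of 5 tested proliferation markers, and 1 of 4 tested cholangiocyte and 1 of 2 tested T, NK and B cell markers. In HFD against BD 2 macrophage and monocyte markers, 1 Kupffer cell marker and 1 T, NK and B cell marker were called higher. Of all genes tested, 12.8% were called higher in MCD against BD and 3.65% in HFD against BD. Of 6 hepatocyte markers 1 was higher and 1 lower in each, and of cholangiocyte markers 1 was lower in each. The stellate cell and fibroblast markers summed to 457 to 847 CPM in MCD, 294 to 471 CPM in HFD and 247 to 323 CPM in BD. Neutrophil markers summed to at most 2.55 CPM and none was tested. Erythroid markers summed to 119 to 190 CPM in MCD, 94.4 to 160 CPM in HFD and 136 to 153 CPM in BD. Of them Hba-a1 was at 0 in all libraries, and 1 was tested and not called.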
